A study of Homo sapiens with 3 samples.

Results

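This account describes 135 mitochondria-rich cell barcodes of VCaP–ENZ48, a Drop-seq library of VCaP prostate cancer cells exposed to 10 µM enzalutamide for 48 h. A barcode marks the RNA caught on 1 bead, and a unique molecular identifier (UMI) marks 1 captured RNA molecule. Of 1000 barcodes in the library, 999 held at least 500 UMIs and at least 300 detected genes. No upper limit was set on mitochondrial content. A barcode was selected on its measured share of UMIs from mitochondrial genes, of which the file holds 30, all with names that start with MT-. The mitochondria-rich barcodes had more than 15% of such UMIs, and 768 other barcodes had at most 10%. A further 96 barcodes lay between both limits and entered neither group. In the whole series 2996 barcodes were kept.

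VCaP is an established prostate cancer line with a TMPRSS2-ERG fusion, and enzalutamide is an androgen receptor antagonist. The series has 2 more libraries of the same kind, VCaP parental cells given 0.1% DMSO for 48 h and LNCaP–ENZ168, in which LNCaP cells, another established prostate cancer line, had 10 µM enzalutamide for 168 h. The labels describe the VCaP–ENZ48 cells as enzalutamide sensitive. Each condition is 1 library, so cells were not treated as replicates and no statistical test was made. Intervals given here are exact 95% intervals that cover counting error only.

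Mitochondrial transcripts are made from the circular genome inside the organelle and stay there, whereas nuclear transcripts are spliced in the nucleus and exported. In the cytoplasm, mRNAs for secreted, lysosomal and most membrane proteins are translated by ribosomes bound to the endoplasmic reticulum (ER), and mRNAs for most soluble proteins are translated by free ribosomes. A high mitochondrial share is used in single-cell work as a sign of low cell quality, and it also varies with cell type and state.

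The rich barcodes held far fewer nuclear UMIs than the other barcodes and somewhat more mitochondrial ones. Nuclear UMIs per barcode ran from 1358 to 21693 in the rich group, with a median of 3858. They ran from 1222 to 111126 in the other group, with a median of 12221, so the median of the rich barcodes was 31.6% of that of the others. Mitochondrial UMIs ranged from 381 to 4087 (median 1162) in rich barcodes and from 47 to 7863 (median 844) in the others. The groups thus overlapped widely in both counts, as the plot of UMIs against mitochondrial share shows. Over the summed barcodes there were 29.3 mitochondrial UMIs for every 100 nuclear UMIs in the rich group and 7.17 in the other group. These values follow from the selection and are a description of it.

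**Figure D1:**
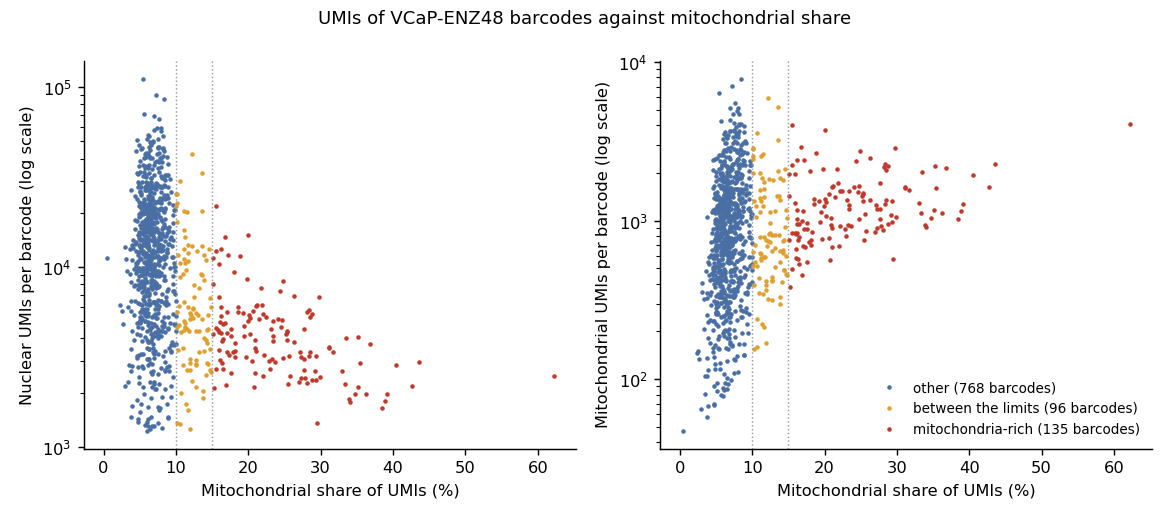
Nuclear UMIs (left) and mitochondrial UMIs (right) per barcode of VCaP–ENZ48, on log scales, against the mitochondrial share of UMIs in percent; each point is 1 barcode and dotted lines mark 10% and 15%. Nuclear UMIs have a median of 3858 in the 135 rich barcodes and 12221 in the 768 other barcodes, whereas median mitochondrial UMIs are 1162 and 844.

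Nuclear content was lower already in the barcodes between the limits. The median number of nuclear UMIs was 9799 in the 92 barcodes of up to 5% mitochondrial UMIs and 12821 in the 676 barcodes of 5 to 10%. It was 5402 in the 96 barcodes of 10 to 15%, 4533 in the 83 barcodes of 15 to 25% and 2944 in the 52 barcodes above 25%. The highest share in any barcode was 62.2%. There was no gap at either limit, since the nearest barcodes lay at 14.8% and 15.1% around the upper limit and at 9.998% and 10.1% around the lower one.

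Rich barcodes were uncommon in the VCaP parental library. They made up 13.5% (interval 11.5 to 15.8) of the kept barcodes of VCaP–ENZ48, 0.601% (0.221 to 1.30; 6 of 999) in VCaP parental and 12.7% (10.7 to 14.95; 127 of 998) in LNCaP–ENZ168. The libraries differed in depth as well as treatment, with median UMIs per kept barcode of 10650, 17815 and 5268 in that order, and with 1 library each a difference between conditions cannot be told apart from a difference between libraries. No kept barcode sequence was shared between libraries. In VCaP–ENZ48, 94.8% of the rich barcodes and 85.2% of the others ended in an N, a last base that was not assigned. Their part in the values was not tested beyond leaving such barcodes out, which kept 7 rich barcodes. No rich barcode lay 1 base away from a deeper barcode.

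The rich barcodes carried the markers of the line. Prostate epithelial markers, of which 11 of 12 were high enough to be compared, summed to 10546 CPM in rich barcodes and 7946 CPM in the others, in CPM, the counts of a gene scaled to a common total of nuclear UMIs. VCaP line markers (ERG, ITM2A, ADIRF, S100A10 and TSPAN8) summed to 5531 and 4348 CPM. Leukocyte markers were at 3.22 and 3.34 CPM, erythroid markers at 6.44 and 5.17 CPM, and endothelial markers at 0 and 0.167 CPM. Fibroblast markers were at 48.3 CPM in rich barcodes (30 UMIs) and 26.8 CPM in the others, and LNCaP line markers at 59.6 CPM (37 UMIs) and 21.3 CPM. No member of those last 5 lists reached the level needed for a comparison of its own.

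Next, the nuclear transcriptome of both groups was compared after taking out all mitochondrial genes from the totals. Nuclear UMIs were summed to 620697 in the rich group and 11989329 in the other group, and each gene's CPM was set over these sums. Among 2921 genes whose mean over both groups reached 50 CPM, a gene was called when its log2 ratio of CPM + 1 was at least 1 in size and the interval of the count ratio left out 1. By this rule 257 genes (8.80%) were called higher and 134 genes (4.59%) lower in rich barcodes. The log2 ratios ran from -2.35 to 2.22, with a median of -0.18. Other scalings shifted the balance of calls. TMM factors moved the median ratio to -0.44 and gave 81 genes higher and 463 lower, and median-of-ratios factors gave 83 and 450. When the same factors were taken from the compared genes alone, which was chosen after seeing the data, 409 or 450 genes were higher and 51 or 43 lower. List medians are therefore to be read against the median of -0.18 over all genes, since a common scaling factor shifts both alike. Shares of a list called higher or lower are to be read against the 8.80% and 4.59% of all genes.

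The highest ratios belonged to a tetraspanin, to nuclear copies of mitochondrial genes and to genes of the secretory pathway. CD81, a tetraspanin of the cell surface (GRCh38 chromosome 11, 2376177 to 2397802), was at 279 CPM in rich barcodes (173 UMIs) and 59.0 CPM in the others (708 UMIs). Its log2 ratio was 2.22 (interval 1.99 to 2.48). CD81 was at 56.3 and 59.4 CPM in the bins up to 5% and 5 to 10%, at 113 CPM in the bin of 10 to 15%, and at 269 and 305 CPM above that. CTSF, the lysosomal protease cathepsin F, had a log2 ratio of 2.05 (143 against 33.8 CPM). CHGA, the secretory granule protein chromogranin A, had 1.83 (111 against 30.4 CPM), and CLSTN1, the membrane protein calsyntenin, had 1.89 (132 against 34.9 CPM).

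Other high ratios included membrane, ER and matrix proteins. UBR3, a ubiquitin ligase, had a log2 ratio of 2.01, TMEM131, a membrane protein, 1.79 and P4HTM, a prolyl hydroxylase of the ER membrane, 1.75. LAMC1 and LAMB1, laminin chains of the basement membrane, had ratios of 1.73 and 1.603. ATP2A2, the calcium pump of the ER, had 1.63 (187 against 59.7 CPM). SPTAN1 and SPTBN1, the spectrin chains of the skeleton under the membrane, had ratios of 1.65 and 1.59. The sequence annotated as AC006504.1 had 1.66, and MARC1, an enzyme of the mitochondrial outer membrane, had 1.64 (90.2 against 28.3 CPM). Of these, P4HTM, LAMC1, LAMB1, ATP2A2, SPTAN1, SPTBN1, AC006504.1 and MARC1 stood outside the 12 highest and were picked after their values were seen.

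The lowest ratios belonged mostly to genes for small soluble proteins. DYNLT3, a light chain of the dynein motor (chromosome X, 37836757 to 37847571), was at 17.7 CPM in rich barcodes (11 UMIs) and 94.4 CPM in the others (1132 UMIs), a log2 ratio of -2.35 (interval -3.42 to -1.57). COX17, a copper chaperone for cytochrome c oxidase, was at 49.9 against 151 CPM (log2 ratio -1.58), and BOLA3, which serves iron-sulfur cluster assembly in mitochondria, at 29.0 against 89.3 CPM (-1.59). PRELID3B (-1.63), ENOPH1, an enzyme of methionine salvage (-1.62), ANAPC13, a subunit of the anaphase-promoting complex (-1.48), and RTRAF (-1.42) followed. SCOC (-1.40), SH3BGRL3 (-1.39), COX7A2L, a factor of respiratory supercomplexes (-1.38), and the sequences annotated as RPL7P23 (-1.45) and AC107075.1 (-1.38) closed the 12. RPL7P23 is a ribosomal protein pseudogene, so its reads cannot be told apart with certainty from those of its parent gene.

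**Figure D2:**
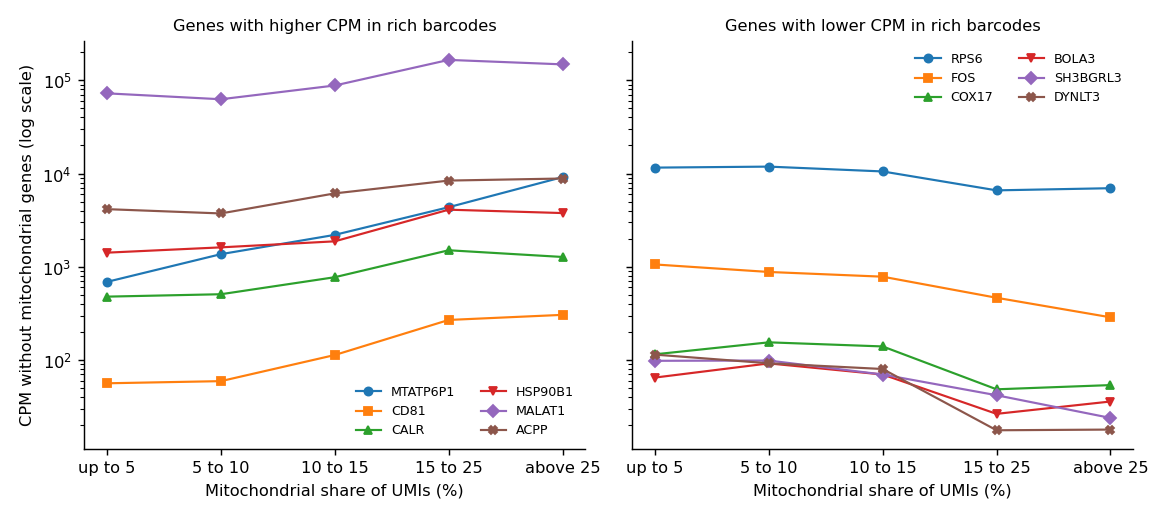
CPM without mitochondrial genes (log scale) of 12 genes in 5 bins of mitochondrial share, from up to 5% to above 25% of UMIs, summed over the barcodes of VCaP–ENZ48 in each bin. MTATP6P1 goes from 689 to 9158 CPM and CD81 from 56.3 to 305 CPM, whereas DYNLT3 goes from 114 to 17.9 CPM and RPS6 from 11577 to 6963 CPM.

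MALAT1, a long noncoding RNA that stays in the nucleus, took a large part of the RNA in rich barcodes. It lies on chromosome 11, at 65497640 to 65508073. It made up 16.1% of the nuclear UMIs of the rich group (99859 UMIs) and 6.36% of those of the other group (762500 UMIs), a log2 ratio of 1.34. Over single barcodes its share ran from 2.31% to 39.1% with a median of 16.6% in the rich group, and from 0.717% to 33.9% with a median of 7.02% in the other group. The groups overlapped, but 122 of 135 rich barcodes lay above the median of the others. In the bins from up to 5% to above 25% its share was 7.25%, 6.26%, 8.80%, 16.6% and 14.8%.

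Other long noncoding RNAs did not all move with MALAT1. Of 14 compared, 4 (28.6%) were called higher (MALAT1, FTX, LINC00342 and PVT1) and none lower. The median log2 ratio of the 14 was 0.57, or 0.75 above the median of all genes. NEAT1, the scaffold of nuclear paraspeckles, was at 3791 against 2194 CPM (log2 ratio 0.79) and was not called. GAS5, a spliced host of small nucleolar RNAs, was at 1571 against 2820 CPM (-0.84).

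Messenger RNAs of the cytosolic ribosome were lower almost throughout. Of 79 compared, 78 had a log2 ratio below 0. Of these genes 11 (13.9%) were called lower and none higher, and the median was -0.83, or 0.66 below that of all genes. RPS4X (-1.12), RPL12 (-1.08) and RPL4 (-1.06; 1748 against 3638 CPM) were among those called. The most abundant members shifted less, with RPS18 at 11339 against 13238 CPM (-0.22), RPS19 at 8656 against 11421 CPM (-0.40) and RPS6 at 6699 against 11838 CPM (-0.82). RPS21 alone lay above 0, at 0.58. Together these genes supplied 17.5% of the nuclear UMIs of the rich group and 28.3% of the others. Per barcode the share ran from 6.16% to 36.9% (median 16.3%) in the rich group and from 4.66% to 48.9% (median 28.5%) in the other group, and 5 of 135 rich barcodes lay above the median of the others.

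Of 38 translation factors compared, 4 (10.5%) were called lower and none higher, with a median of -0.63, and 5 lay above 0. EEF1A1, which brings tRNAs to the ribosome, was at 335 against 823 CPM (log2 ratio -1.29). TPT1, a small growth-related protein, was at 743 against 1598 CPM (-1.10). NACA and EIF3E were the other 2 members called lower.

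Many genes for ER chaperones were called higher. In the list for the ER and integrated stress response, 9 of 17 compared genes (52.9%) were called higher and 1 (5.88%) lower. The median log2 ratio was 1.09, or 1.26 above that of all genes. CALR, a calcium-binding chaperone of the ER lumen (chromosome 19, 12938578 to 12944489), was at 1442 CPM (interval 1349 to 1540) against 505 CPM (492 to 518), a log2 ratio of 1.51 (1.41 to 1.62). HSP90B1 was at 4008 against 1596 CPM (1.33) and HSPA5, the chaperone BiP, at 1756 against 771 CPM (1.19). PDIA4 (1.41), XBP1, a transcription factor of the unfolded protein response (1.43), MANF (1.29) and PDIA3 (1.09) were also called, as were DNAJB11 and PDIA6. Some other members lay below 0. PPP1R15A, a phosphatase subunit of the integrated stress response, was called lower at -1.09, and the transcription factors DDIT3 and ATF4 had -0.60 and -0.33.

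The median CALR level over single barcodes was 1285 CPM in the rich group (lowest 0, highest 5208) and 412 CPM in the other group (0 to 2585). Of the rich barcodes 112 of 135 lay above the median of the others. VCaP parental cells, summed over all kept barcodes, held CALR at 565 CPM, HSP90B1 at 3181 CPM and HSPA5 at 1446 CPM.

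Genes of the machinery that moves proteins into the ER had 7 of 32 members (21.9%) called higher and 1 (3.1%) lower. The median of the 32 was 0.81. STT3B (1.53) and RPN2 (1.36), subunits of the enzyme that adds glycans, and SEC62 (1.12) and TRAM1 (1.05) of the translocon were called higher. SRP9, a small soluble subunit of the signal recognition particle, was called lower at -1.23 (132 against 311 CPM). In the list for lysosome and autophagy 9 of 16 (56.25%) were called higher and none lower, with a median of 1.01. They were lysosomal hydrolases and membrane or carrier proteins, among them CTSD (1.17), CD63 (1.14; 1084 against 493 CPM), GRN (1.11) and PSAP (1.05; 744 against 358 CPM). The cytosolic autophagy proteins GABARAP and GABARAPL2 had -0.65 and -0.72.

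With all barcodes of both groups, no nuclear gene of the lists for mitochondrial proteins was called higher. The lists do not hold every such gene, since MARC1, which is in none of them, was called higher at 1.64. Of 74 compared genes of the respiratory chain, 4 (5.41%) were called lower (CYCS, UQCRB, UQCRFS1 and UQCRH) and none higher. That share is near the 4.59% of all genes, and the median was -0.36, or 0.18 below that of all genes. CYCS, cytochrome c, was at 108 against 267 CPM (-1.297) and UQCRB at 525 against 1084 CPM (-1.04). COX6A1 had the highest ratio of the list, 0.99 (1155 against 582 CPM), just under the limit for a call. It was 1.499, past that limit, when both groups were held to the same range of depth. COX8A was at 1590 against 1922 CPM (-0.27) and ATP5F1E at 661 against 1116 CPM (-0.76). Mitochondrial ribosomal proteins had 1 of 58 (1.72%) called lower (MRPS23) and a median of -0.52. Mitochondrial import, chaperones and proteases, and genome upkeep had no calls among 10, 9 and 7 compared genes, with medians of -0.53, -0.26 and -0.19.

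**Figure D3:**
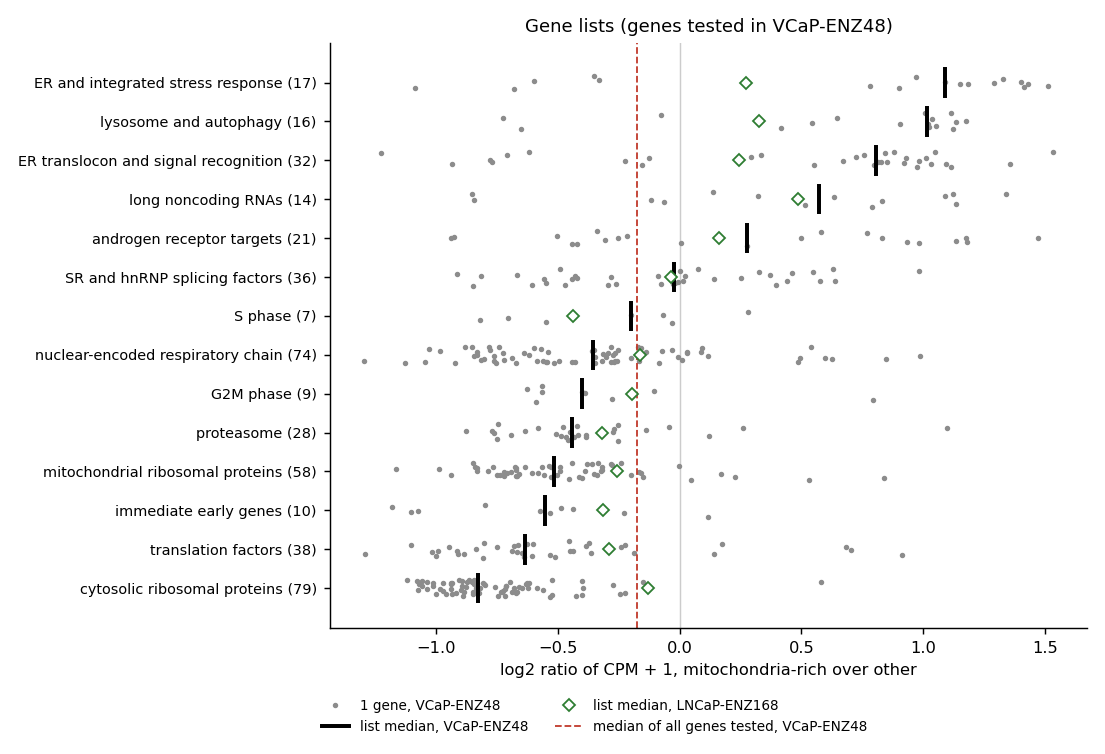
log2 ratio of CPM + 1, mitochondria-rich over other barcodes, of the compared genes of 14 lists in VCaP–ENZ48 (grey points, 1 gene each; number of genes in parentheses), with the list median (black bar), the list median in LNCaP–ENZ168 (open diamond) and the median of all genes (dashed line, -0.18). ER and integrated stress response lies highest, with a median of 1.09, and cytosolic ribosomal proteins lowest, at -0.83.

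Androgen receptor targets were split. Of 21 compared, 4 were called higher and none lower, with a median of 0.28. Among those called were ACPP, the secreted prostatic acid phosphatase (8524 against 3774 CPM, 1.18), ACSL3, a lipid enzyme of the ER membrane (1.18), and PLPP1, a membrane phosphatase (1.13). KLK2, a secreted protease, was at 4811 against 3217 CPM (0.58), and its median over barcodes was 4686 CPM in the rich group (0 to 15122) and 2850 CPM in the other group (0 to 13367). KLK4, another protease of the prostate, had a log2 ratio of -0.44 and TPD52 had -0.94. ERG was at 74.1 against 61.1 CPM (0.28, interval -0.18 to 0.71). FKBP5, another androgen-induced gene, had 8 UMIs in rich barcodes and fell under the level for a call (12.9 against 26.7 CPM).

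Some genes raised by enzalutamide in VCaP were also higher in rich barcodes. This list was chosen on these libraries, so its direction is not independent evidence. Of 7 compared, 3 (42.9%) were called higher. They were PLA2G2A, a secreted phospholipase (1400 against 575 CPM, log2 ratio 1.28), CCN3, a secreted matrix protein (1.14), and FBLN2, an extracellular fibulin (1.12). PLA2G2A was at 32.8 CPM in VCaP parental cells. NPY, a secreted neuropeptide, was at 2358 CPM in VCaP parental cells, above its level in both groups of VCaP–ENZ48. It was at 274 against 116.1 CPM (1.23), but 1 barcode held 17.6% of its 170 UMIs in the rich group. NPY was found in 28.9% of rich and 36.3% of other barcodes. Its ratio was 0.76 when both groups were held to the same range of depth. Among prostate epithelial markers EPCAM, a membrane protein, was called higher (1.17), whereas KRT8, KRT18 and HOXB13 had -0.30, -0.41 and -0.66.

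Immediate early genes answer stress and growth signals within minutes. Of 10 compared, 3 (30%) were called lower (FOS, KLF6 and ZFP36), against 4.59% of all genes, and none higher. Their median was -0.55. FOS was at 417 against 897 CPM (-1.10), and MYC at 364 against 527 CPM (-0.53). BTG2 was at 255 against 298 CPM (-0.23). S phase genes had no call among 7 (median -0.20, close to that of all genes) and G2M genes none among 9 (median -0.40). PCNA was at 62.8 against 103 CPM (-0.71), TIPIN at 49.9 against 89.0 CPM (-0.82) and USP1 at 61.2 against 64.2 CPM (-0.07). HMGB2 was at 131 against 202 CPM (-0.63), SMC4 at 148 against 180 CPM (-0.28) and LBR, an inner nuclear membrane protein, at 206 against 119 CPM (0.79). When both groups were held to the same range of depth, HMGB2 turned to 0.15, SMC4 to 0.15 and USP1 to 0.45.

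The remaining lists stayed near the median of all genes or held few calls. Splicing factors had no call among 36 (median -0.02), cytosolic heat shock proteins none among 10 (-0.28) and glycolysis and hypoxia genes none among 11 (-0.02). The proteasome had 1 of 28 (3.57%) called higher (PSMD3) with a median of -0.44, and the BCL2 family 1 of 3 (33.3%) lower (BNIP3). Of the signatures defined in the study, the initial clusters had 8 higher (8.51%) and 4 lower (4.26%) of 94 and the persistent clusters 17 (7.66%) and 13 (5.86%) of 222, near the 8.80% and 4.59% of all genes. Cluster 3 had 12 higher (15.8%) and 3 lower (3.95%) of 76, the ENZ-induced clusters 15 (13.6%) and 6 (5.45%) of 110 and PROSGenesis 5 (17.2%) and 1 (3.45%) of 29. Persist had 1 of 3 (33.3%) higher (CD81). The 12 members of Cluster 3 called higher included CALR, HSP90B1, HSPA5, MANF, PDIA3, PDIA4, PDIA6, P4HB and PLA2G2A. All 12 are also among the 15 of the ENZ-induced clusters, which had only EPHX1, MDK and TM7SF2 besides. Both counts thus describe much the same genes.

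Since secreted and membrane proteins recurred among the higher genes, each protein-coding gene was sorted by whether its translated sequence holds a long hydrophobic stretch, as signal peptides and membrane segments do. This grouping was chosen after seeing the data, and it misplaces some genes, since a few ribosomal proteins also have such a stretch. Of 2755 protein-coding genes compared, 880 (31.9%) had one. Among the 241 protein-coding genes called higher, 219 (90.9%) had one, and among the 117 called lower, 13 (11.1%). The median log2 ratio was 0.72 (quartiles 0.06 and 1.00) with a stretch and -0.37 (-0.67 and 0.03) without. Leaving out ribosomal protein genes gave medians of 0.72 and -0.34.

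For the lists of mitochondrial proteins the medians of both sides lay closer together. In these lists, 31 genes with a stretch had a median of -0.27 with none called higher, and 126 without had -0.49. The median of all genes was -0.18, and that of all protein-coding genes without a stretch was -0.37. Some other lists were split like all protein-coding genes and others were not. Androgen receptor targets with a stretch had a median of 0.88 (10 genes) and those without -0.32 (10 genes). In the list for ER and integrated stress response the medians were 1.24 (10 genes) and -0.35 (7 genes), and in Cluster 3 they were 0.90 (37 genes) and -0.52 (39 genes). They were 0.88 (50 genes) and -0.50 (58 genes) in the ENZ-induced clusters and 0.97 (14 genes) and -0.40 (15 genes) in PROSGenesis. Every sorted gene called higher in Cluster 3, the ENZ-induced clusters and PROSGenesis had a stretch. That is near the 90.9% of all protein-coding genes called higher. Of sorted genes called higher, the initial clusters had 6 with a stretch and 1 without, and the persistent clusters 14 and 2. SMCO4, the PROSGenesis gene called lower, also had a stretch. Among genes raised by enzalutamide in VCaP, 6 of the 7 compared had a stretch (median 1.01), and the 1 without had 0.70. Cytosolic ribosomal proteins with a stretch had -0.87 (6 genes) and those without -0.82 (73 genes). For translation factors the medians were -0.64 (3 genes) and -0.63 (35 genes), and for mitochondrial chaperones and proteases -0.40 (2 genes) and -0.27 (6 genes).

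Coding length moved with the ratio as well. Protein-coding genes were put in 4 groups of nearly equal size by coding length. In the shortest group, of 25 to 207 residues, 17 of 693 (2.45%) were called higher and 73 (10.5%) lower, with a median of -0.60. In the longest group, above 625 residues, 87 of 688 (12.6%) were called higher and 3 (0.436%) lower, with a median of 0.32. Within genes without a stretch the median went from -0.69 in the shortest group through -0.50 and -0.24 to 0.18 in the longest. Within genes with a stretch it was 0.31, 0.75, 0.83 and 0.72 in the same order. In each group of length the genes with a stretch thus had the higher median. By length of the whole gene, introns included, medians were -0.46, -0.26, -0.10 and 0.23 from the shortest to the longest group of 4.

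**Figure D4:**
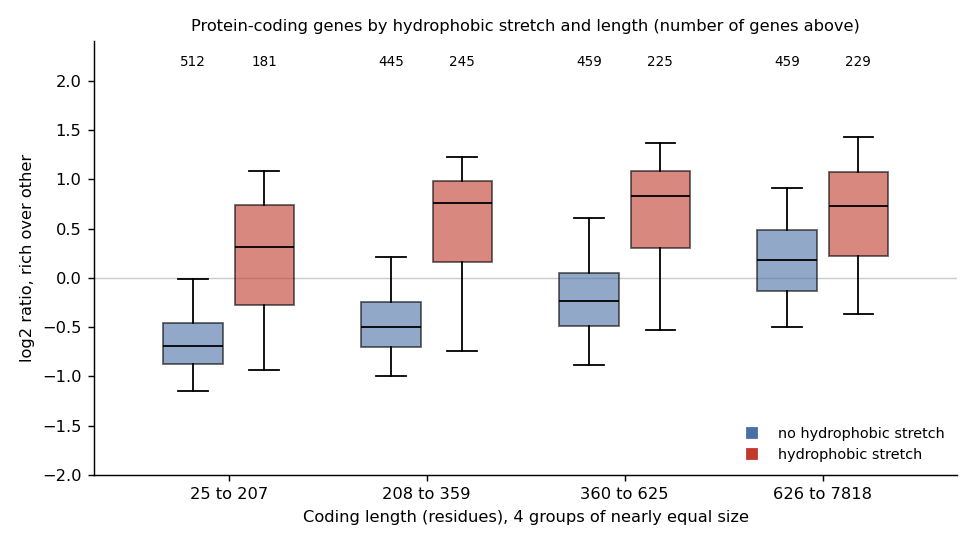
log2 ratio, mitochondria-rich over other barcodes, of 2755 protein-coding genes in 4 groups of coding length in residues, with (red) and without (blue) a hydrophobic stretch; boxes span the quartiles, the line is the median, whiskers reach the 5th and 95th percentiles and the number of genes stands above. Medians with a stretch lie between 0.31 and 0.83, and those without between -0.69 and 0.18.

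The shift could be seen in single barcodes. Genes with a stretch, mitochondrial proteins left out, supplied 24.8% of the nuclear UMIs in the rich group and 16.9% in the other group. Per barcode this share ran from 12.1% to 39.2% (median 25.4%) in rich barcodes and from 10.1% to 25.9% (median 16.3%) in the others. The groups overlapped, and 127 of 135 rich barcodes lay above the median of the others. In the bins from up to 5% to above 25% the summed share was 17.2%, 16.8%, 19.3%, 24.6% and 25.4%.

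**Figure D5:**
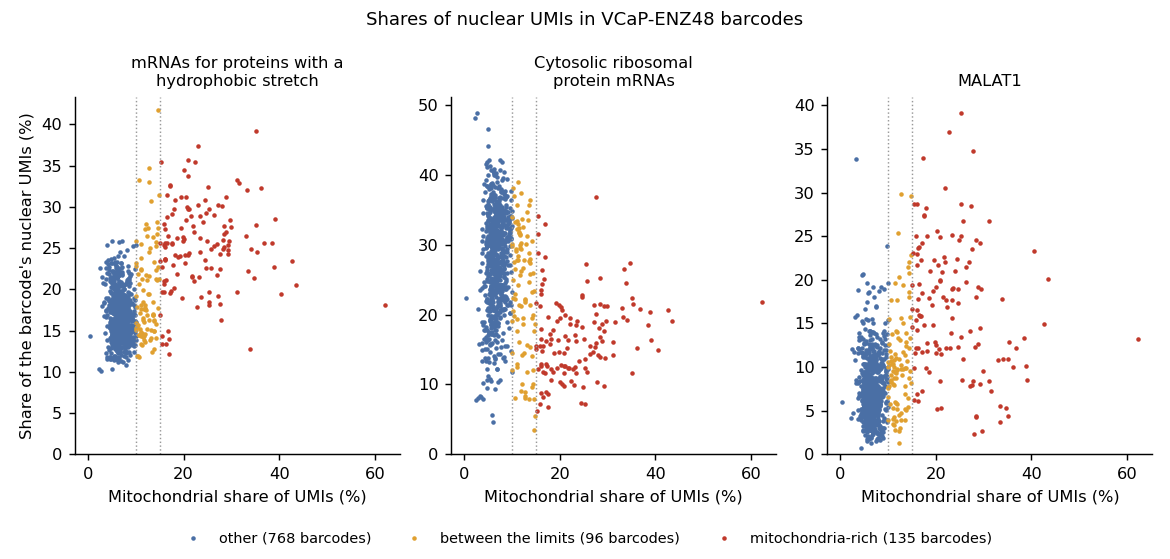
Share of each barcode's nuclear UMIs (percent) from genes for proteins with a hydrophobic stretch, cytosolic ribosomal protein genes and MALAT1, against its mitochondrial share of UMIs in VCaP–ENZ48; each point is 1 barcode and dotted lines mark 10% and 15%. Median shares in rich and other barcodes are 25.4% and 16.3%, 16.3% and 28.5%, and 16.6% and 7.02%.

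Rich barcodes were shallower, so both groups were also held to the range of nuclear UMIs between the 10th and 90th percentiles of the rich group. This left 107 rich and 189 other barcodes, with medians of 3858 and 4746 nuclear UMIs. Then 404 genes were called higher and 205 lower, and 226 of the 257 and 104 of the 134 first called genes were called again. Genes with a stretch had a median of 0.82 and those without -0.33. The ratios of CD81, CALR and HSPA5 became 2.41, 1.66 and 1.56, and that of MALAT1 became 0.91, under the limit for a call.

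Of 51 pseudogenes other than mitochondrial copies, 12 (23.5%) were called lower and none higher (median -0.77). Of 50 genes annotated as lncRNA, 5 (10.0%) were called higher and none lower, with a median of -0.12, near the 8.80% and the median of -0.18 of all genes.

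Nuclear copies of mitochondrial genes had some of the highest ratios. Fragments of the mitochondrial genome lie in the nuclear genome as pseudogenes, and a read of mitochondrial RNA can be counted on such a copy. The file held 164 genes named as such copies, and 21 of them matched the mitochondrial genome over at least 100 bases at 90% identity or more. All 6 copies high enough to be compared were called higher, with log2 ratios from 1.83 to 2.19 and a median of 2.06. Among them, MTND3P19 had no such match and is counted as a copy by its name. The sum of all mitochondrial UMIs per nuclear UMI had a log2 ratio of 2.03, which the selection fixed. MTATP6P1, a copy of MT-ATP6 on chromosome 1 (633696 to 634376), was the most abundant, at 5648 CPM (3506 UMIs) against 1299 CPM (15579 UMIs), a log2 ratio of 2.12. It was at 689 CPM in the bin of up to 5%, and at 1366, 2199, 4355 and 9158 CPM in the next bins. MT-ATP6, counted per nuclear UMI, had 1.94.

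The last 150 bases of the copy and of the mitochondrial gene are shown because only bases that differ can set their reads apart. Alignments of single reads were not examined. Capitals mark the 3 positions in the stretch at which they differ, of 10 in the whole 681 bases (98.5% identical); the sequences are Gencode transcripts on GRCh38, 5′ to 3′.
MTATP6P1: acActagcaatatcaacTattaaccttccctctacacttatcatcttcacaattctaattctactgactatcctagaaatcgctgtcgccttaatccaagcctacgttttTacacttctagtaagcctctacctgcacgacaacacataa
MT-ATP6: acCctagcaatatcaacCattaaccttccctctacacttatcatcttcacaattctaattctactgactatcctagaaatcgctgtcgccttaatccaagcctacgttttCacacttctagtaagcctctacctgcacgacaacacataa

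MTND2P28 (512 against 122 CPM), MTND4P12 (338 against 80.3 CPM), MTND3P19 (243 against 58.6 CPM), MTCO1P12 (197 against 42.4 CPM) and MTCO1P40 (166 against 46.0 CPM) were the others. All copies together took 0.797% of the nuclear UMIs in rich barcodes and 0.187% in the others.

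The mitochondrial genes themselves kept much the same proportions. MT-RNR2, the large ribosomal RNA, made up 21.5% of mitochondrial UMIs in rich barcodes (interval 21.3 to 21.7) and 19.1% in the others (19.1 to 19.2). MT-CO1 was at 16.4% and 16.9%, MT-CO3 at 13.7% and 14.3%, MT-CO2 at 10.4% and 10.5% and MT-CYB at 10.1% in both. MT-ND5 was at 2.69% and 2.44%. MT-ND6, the only coding gene on the light strand, was at 0.323% (0.297 to 0.350) and 0.436% (0.422 to 0.450), a log2 ratio of shares of -0.43. MT-TT, a transfer RNA, was at 0.0907% and 0.181%, a log2 ratio of -0.998 (-1.24 to -0.77). The intervals of the ratio of shares included 0 for MT-CO2 (-0.04 to 0.01) and MT-CYB (-0.02 to 0.02). The spread between cultures is not known from 1 library.

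Finally, the same limits were applied to LNCaP–ENZ168, whose barcodes the selection in VCaP–ENZ48 did not use. Its 127 rich and 661 other barcodes had medians of 2927 and 5150 nuclear UMIs and of 1015 and 410 mitochondrial UMIs. Of 4162 genes compared, 43 (1.03%) were called higher and 26 (0.625%) lower. Of the 257 genes called higher in VCaP–ENZ48, 178 were compared in LNCaP–ENZ168 and 174 of them (97.8%) had a ratio above 0 there. Among all 2486 genes compared in both libraries 39.9% did. The called genes above 0 there include the nuclear copies MTATP6P1 and MTND2P28, which a split on mitochondrial share can itself raise. Of the 134 called lower, 112 were compared and 107 (95.5%) had a ratio below 0, against 60.1% of all genes. The sizes were smaller, with medians of 0.44 and -0.37 in LNCaP–ENZ168 for genes whose medians in VCaP–ENZ48 were 1.15 and -1.10.

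Called higher in both libraries were ANKLE2, ERP44, FTX, MACF1, MALAT1, MTATP6P1 and MTND2P28, and no gene was called lower in both. Of these, MTATP6P1 and MTND2P28 are nuclear copies of mitochondrial genes, on which mitochondrial reads can be counted. Both libraries were split on mitochondrial share, so agreement at these copies is not independent of the selection. MALAT1 took 6.29% of nuclear UMIs in rich and 2.91% in other barcodes of LNCaP–ENZ168 (log2 ratio 1.11). Genes with a hydrophobic stretch had a median of 0.22 there and those without -0.17. The list medians were 0.27 for ER and integrated stress response, 0.32 for lysosome and autophagy, 0.49 for long noncoding RNAs and -0.13 for cytosolic ribosomal proteins, against -0.08 for all genes compared there. Of 24 genes of the ER list there, none was called higher and 1 lower. None was called among 19 of the lysosome list or 78 of the ribosomal list. Of 13 long noncoding RNAs, 3 were called higher, against 1.03% of all genes. Whether the libraries differ in size of the shift was not tested.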

How the data were processed

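Single-cell expression of 3 libraries (VCaP–ENZ48, VCaP parental and LNCaP–ENZ168, 1 each) was measured by Drop-seq. The deposited files give whole UMI counts, not normalized, of each gene in each barcode, which the authors made with the Drop-seq tools, the STAR aligner and Picard on GRCh38 with a Gencode annotation and an expected 1000 cells a sample. Each file lists 1000 barcodes, and no column was left unmapped. The methods of the study filter cells by mitochondrial percentage, but no upper limit was used here. Doublets were not called, and the barcodes deeper than 3 times the median were left out in 1 alternative.

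Counts were summed over the barcodes of a group and divided by the sum of nuclear UMIs (CPM without MT- genes). Sums carry exact Poisson, shares exact Clopper-Pearson and ratios exact conditional 95% intervals, from scipy 1.17.1. A pseudocount of 1 CPM was added to log2 ratios, which understates changes of low genes, and genes were compared where their mean over both groups reached 50 CPM. The procedure was tested on simulated data. Members and gene lists were chosen with earlier results of these data known. There were 34 lists, of which 8 were main lists (long noncoding RNAs, cytosolic ribosomal proteins, nuclear-encoded respiratory chain, androgen receptor targets, ER and integrated stress response, immediate early genes, S phase and G2M phase). Named genes were the 12 called highest and 12 called lowest, the 3 most abundant of each main list, 8 chosen genes (among them MALAT1, NEAT1, KLK2, ERG, PLA2G2A, NPY and FKBP5), and others where a list's count was described. Lists share genes with each other, and some named genes are not reported here.

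Coordinates, biotypes and coding sequences are from Gencode 44, a later version than the authors used, and 57 compared genes had no match. A hydrophobic stretch is a window of 19 residues with a mean Kyte-Doolittle hydropathy of at least 1.6, or of 12 residues with at least 2 that starts in the first 25. Matches to the mitochondrial genome came from blastn 2.17.0. TMM factors came from edgeR 4.0.16. In all, 21 alternatives were run, 3 of them chosen after seeing the data.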

Additional observations from a re-analysis of the deposited data

Results flagged for a closer look

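PLA2G2A, a secreted phospholipase, was called in opposite directions by the same split in both enzalutamide libraries. Its log2 ratio, rich over other, was 1.28 in VCaP–ENZ48 and -1.16 in LNCaP–ENZ168. The LNCaP–ENZ168 value rests on 20 UMIs in rich barcodes and 437 in the others (44.9 against 102 CPM). The difference between the libraries was not tested, since each is 1 library of another line, time and depth.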

How the results depend on the processing

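No paired analysis was possible because the split lies inside 1 library. None of the 38 called named genes changed sign in 792 values under the alternatives. These genes had log2 ratios of at least 1 in size, and many alternatives kept the same barcodes, so a change of sign was unlikely beforehand. The counts of genes higher and lower (257 and 134) became 403 and 286 with rich barcodes above 20%, 403 and 241 above 25%, 404 and 205 in the depth band, 439 and 220 without barcodes ending in N, 81 and 463 with TMM factors, 83 and 450 with median-of-ratios, 409 and 51, or 450 and 43, with these factors from the compared genes, and 390 and 209 with totals that leave out ribosomal protein genes, MALAT1 and mitochondrial copies. They became 579 and 306 at a minimum of 20 CPM, 130 and 75 at 100 CPM, and 1419 and 588 with no minimum. A pseudocount of 10 CPM left 82 genes lower. The cause of these moves was not tested, except that the minimum sets how many genes are compared. Without barcodes ending in N, 7 rich and 114 other barcodes remained, the median of all genes was 0.31, and medians relative to it were -1.58 for cytosolic ribosomal proteins, -1.20 for the respiratory chain, 0.85 for ER and integrated stress response and -0.60 for S phase. Relative medians moved to -0.75 for ribosomal proteins and -0.91 for immediate early genes with rich above 20%, to -0.76 for ribosomal proteins and 0.98 for ER stress at 20 CPM, to 0.81 for androgen receptor targets at 100 CPM, and to 0.19 for long noncoding RNAs, 1.02 for ER stress and -0.11 for immediate early genes with no minimum. Of the 8 main lists, S phase changed sign under 3 alternatives and G2M phase under 1, and the other 6 under none. Persist, with few genes, turned to 0.99 at 100 CPM. HMGB2 turned to 0.15 in the depth band and to 0.82 without barcodes ending in N. Median nuclear UMIs of rich barcodes were 3375 above 20%, 2944 above 25% and 4533 from 15% to 25%. Those of the others were 4746 in the depth band, 10859 without the deepest barcodes and 21326 without barcodes ending in N. With 620697 nuclear UMIs in the rich group, genes near 50 CPM rest on few UMIs there.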
